A study of Mus musculus with 8 samples.

Results

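Some genes release not 1 but many circular RNAs, and the 116 genes described here are the mouse heart genes with the widest sets. They were chosen by counting, for each gene, the different circular RNAs (circles) listed in the deposited table over all 8 libraries and keeping genes with 20 or more; the sarcomere giant Ttn, with 139 circles, and the ryanodine receptor gene Ryr2, with 147, were left out. The 116 hosts are 1.87% of the 6189 genes with a circle, and they account for 3088 of the 26065 circles (11.8%) and 37107 back-spliced reads (14.8%). The libraries came from hearts of male wild-type mice 8 weeks after a sham operation or transverse aortic constriction (TAC), a surgical narrowing of the aorta that loads the left ventricle with pressure. There were 4 mice per group. RNA was extracted with a circRNA kit, while the labels list total RNA as the molecule. Strain, age and the region of the heart are not stated in the labels.

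A circular RNA forms when the spliceosome joins the 5′ splice site at the end of an exon (the donor) to an upstream 3′ splice site (the acceptor), which may belong to that same exon, a reaction called back-splicing. Long introns and inverted repeats on both sides of the circularised exons are known to favour it, and a splice site can take part in several different back-splices. Circles lack free ends and are therefore stable, and long-lived cells such as cardiomyocytes accumulate them. Each back-splice is read only from the sequence across its junction, so the number of different circles found in a gene depends on how deeply a library was read.

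The number of circles is what chose these hosts and is given only as a description. The count of 20 rests largely on rare circles: 1279 of the 3088 (41.4%) were seen in 1 read, against 45.2% of all circles, and 1681 (54.4%) in 1 library. Counting only circles with 2 or more reads, 21 hosts would keep 20 or more, and 14 when 2 libraries are required. Exactly 20 circles were listed for 18 hosts, among them Rabep1 and Arfgef2, with 30 to 567 reads each (median 111.5). Just outside, 27 genes had 19 circles, among them Itpr1, with 45 to 645 reads (median 105). At the other end stood Dmd, the gene of the membrane linker dystrophin, with 70 circles, its relative Utrn (utrophin) with 52, the inositol trisphosphate receptor gene Itpr2 with 47 and Lama2, which encodes laminin α2, with 46. They were followed by Ptk2, the gene of focal adhesion kinase, with 45, by Arhgap26, which encodes a GTPase-activating protein, and Clasp1, which encodes a microtubule plus-end protein, with 42 each, by Arhgap10, another GTPase-activating protein gene, with 40, and by Sorbs2, whose product is a Z-disc and stress fibre adaptor, with 37. These are large genes: the median host spans 202 kb and has at most 34 exons in 1 transcript, against 110 kb and 22 exons for the 517 genes with 10 to 19 circles.

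The libraries differed in depth and in kind, and this touches every comparison below. Back-spliced reads numbered 40279, 3926, 17738 and 99291 in sham mice 1 to 4, and 32635, 1100, 20843 and 35525 in TAC mice 1 to 4. The 116 hosts took 11.5% to 15% of them. Sham 2 and TAC 2, each with fewer than 5000 reads, are called the 2 shallow libraries below, and the other 6 the deep libraries. In sham 4, 5.05% of the hosts' circles had a single read, against 41.5% to 60.9% in the other libraries. The 2 shallow libraries also sat with the other group in circle length: circles longer than 600 nt held 22.3%, 19% and 16.4% of the hosts' reads in the deep sham libraries and 49.9%, 46.0% and 41.4% in the deep TAC libraries, but 40.7% in sham 2 and 13.4% in TAC 2. The labels of these 2 libraries are in doubt for this reason and could not be checked independently here; sham 2 and TAC 2 mean the libraries labelled so. The main comparisons are therefore given with and without them. Values per library are normalised read counts, the authors' counts divided by 1 scaling factor per library, so that 1 read is worth 0.379, 4.54, 0.828 and 0.195 in sham 1 to 4 and 0.744, 5.77, 1.03 and 0.636 in TAC 1 to 4.

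The junctions show how 1 splice site serves several circles. In Stk39, which encodes SPAK, a kinase of cation-chloride cotransporters, the acceptor of exon 2 (mm10, chromosome 2, minus strand, position 68410141) closed 8 of the 22 circles. The 3 circles that join it to the ends of exon 5, exon 8 and exon 10 are shown because their levels are compared below. Each line gives the last 15 bases of the last exon in lower case and, in capitals, the first 15 bases of the first exon. They are read 5′ to 3′ across the back-splice from the annotated transcript (GENCODE M21). All of these bases are coding.
Stk39 exons 2 to 5: cagtacaaatagcagGCAGCGGAGCAACTG
Stk39 exons 2 to 8: agatccttccaaaagGCAGCGGAGCAACTG
Stk39 exons 2 to 10: caaagagccaagaagGCAGCGGAGCAACTG

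The capitals are the same 15 bases in the 3 lines, while the lower-case parts differ. In Arhgap10 (chromosome 8, minus strand) both kinds of sharing meet. The acceptor of exon 14, at position 77365160, was joined to exons 16, 18 and 19, and the donor of exon 18, at position 77344640, was joined back to exons 12, 14 and 15 among others.
Arhgap10 exons 14 to 16: tcattgttccagccaGTATAAATGACCAAG
Arhgap10 exons 14 to 18: gaaaaccatgaaaagGTATAAATGACCAAG
Arhgap10 exons 14 to 19: ttgagctggaggaggGTATAAATGACCAAG
Arhgap10 exons 15 to 18: gaaaaccatgaaaagATGTAAAAATGTGCA
Arhgap10 exons 12 to 18: gaaaaccatgaaaagCTGTTCCACACGTTT

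The first 3 of these share their capitals, and the circles ending at exon 18 share their lower-case part. In Rabep1, which encodes rabaptin-5, an effector of the endosomal GTPase Rab5, a pair of circles starts at exon 2 (chromosome 11, plus strand, position 70874746) and differs by 1 exon.
Rabep1 exons 2 to 3: aggctataatgaaagTTTCTCTTCAGCAAC
Rabep1 exons 2 to 4: aatgaaatgaaaaagTTTCTCTTCAGCAAC

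Over all 116 hosts, 3088 circles were built from 1547 acceptors and 1672 donors. About as many sites were used once as were reused: 811 acceptors (52.4%) and 881 donors (52.7%) belonged to a single circle. Even so, 2820 circles (91.3%) shared at least 1 of their sites with another circle of the host, against 88.1% in the genes with 10 to 19 circles. The median host had 1.93 circles per site (the mean of its acceptors and donors), against 1.70 in those genes. Ryr2 had 2.51 and Ttn 1.77. Since more circles in 1 gene leave fewer unused sites, these values are a description and were not tested. With circles of 1 read left out, the hosts' median was 1.57, and with circles of 1 library left out 1.54.

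The hosts ranged widely in reuse. Macf1, the gene of a giant actin-microtubule linker, had 1.12 circles per site, so that few of its sites served a second circle. Arhgap26 had 3.36, Mllt10, a partner of the histone methyltransferase DOT1L, 3.30, Arhgap10 2.96, Asph 2.96 and Stk39 2.93. Dmd, with the most circles, stood near the median with 34 acceptors and 34 donors. In 65 hosts there were more donors than acceptors, in 29 fewer and in 22 the same number. The split was similar in the 517 genes with 10 to 19 circles, where 272 had more donors and 142 fewer. The median host showed 23.2% of the acceptor-donor pairs that its sites could form in order, and Stk39 59.5%.

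**Figure D1:**
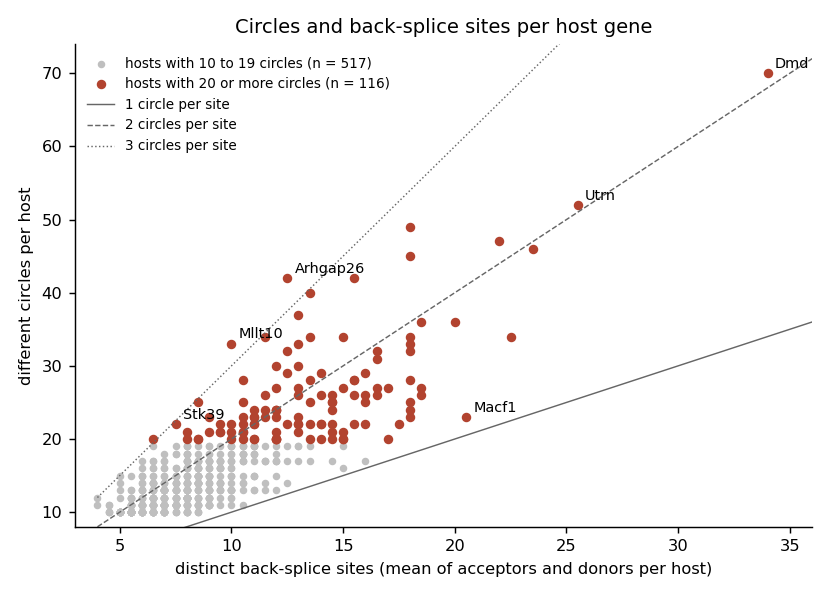
Each point is a gene: its number of different circles (vertical) against its number of distinct splice sites (mean of acceptors and donors, horizontal), for the 116 hosts with 20 or more circles (red) and the 517 genes with 10 to 19 (grey). Lines mark 1, 2 and 3 circles per site; the median host lies at 1.93, Macf1 near the first line at 1.12 and Arhgap26 beyond the third at 3.36.

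The busiest single sites were acceptors. The acceptor of exon 2 of Agtpbp1, which encodes a tubulin deglutamylase, closed 12 of 33 circles (225 reads, chromosome 13, position 59544451), with lengths from 322 to 3474 nt. The acceptor of exon 6 of Vwa8, a mitochondrial ATPase gene, also closed 12, of 34 circles, with 70 reads. Those of exon 2 in the cohesin gene Stag1, exon 2 in the histone chaperone complex gene Ubn2 and exon 3 in Erc1, the gene of the scaffold protein ELKS, closed 10 each. The busiest donors closed 9 circles each: that of exon 18 in Arhgap10, with 1454 reads, 43.5% of the host's summed normalised count, and one in the calcium channel gene Cacna1c (chromosome 6, position 118651948), with 14 reads and 2.81%. A busy site did not always carry most of the host's output: the Agtpbp1 site held 55.6% of its host's summed normalised count and the Vwa8 site 30.8%, whereas the exon 2 acceptor of Stk39 held 79.6%, the exon 11 acceptor of the E3 ligase gene Hecw2 77.3% and the exon 7 acceptor of Sorbs2 76.3%.

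Reused sites lay beside longer introns. The intron next to the acceptor had a median of 3259 nt where the acceptor served 1 circle, 6641 nt where it served 2 or 3, and 8378.5 nt where it served 4 or more. For donors the medians were 3026, 6556 and 11970 nt. The order was the same over all hosts in the table, with 3466.5, 6538.5 and 10977 nt for acceptors and 2894, 5254 and 9824.5 nt for donors. The number of reads on a site moved with both: the hosts' acceptors had a median of 1, 7 and 36 reads in these classes and the donors 1, 9 and 31. The part of read number in the intron lengths was not tested.

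The hosts' circles were built from coding exons within the gene. Their median length was 599 nt over 5 exons, against 502 nt over 4 exons for all circles, and 1.17% held a single exon, against 2.69%. Of these circles, 10.8% (332) started at exon 2, a common start of back-splicing, against 22.9% of all circles. This share fell with the number of circles, which chose the hosts. Its median per gene was 33.3% with 2 to 4 circles, 20% with 5 to 9, 14.3% with 10 to 19 and 9.09% in the hosts. The median circle length per gene rose in the same order, with 469, 508.5, 540 and 596.5 nt. All exons were coding in 93.2%, against 87.9%.

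**Figure D2:**
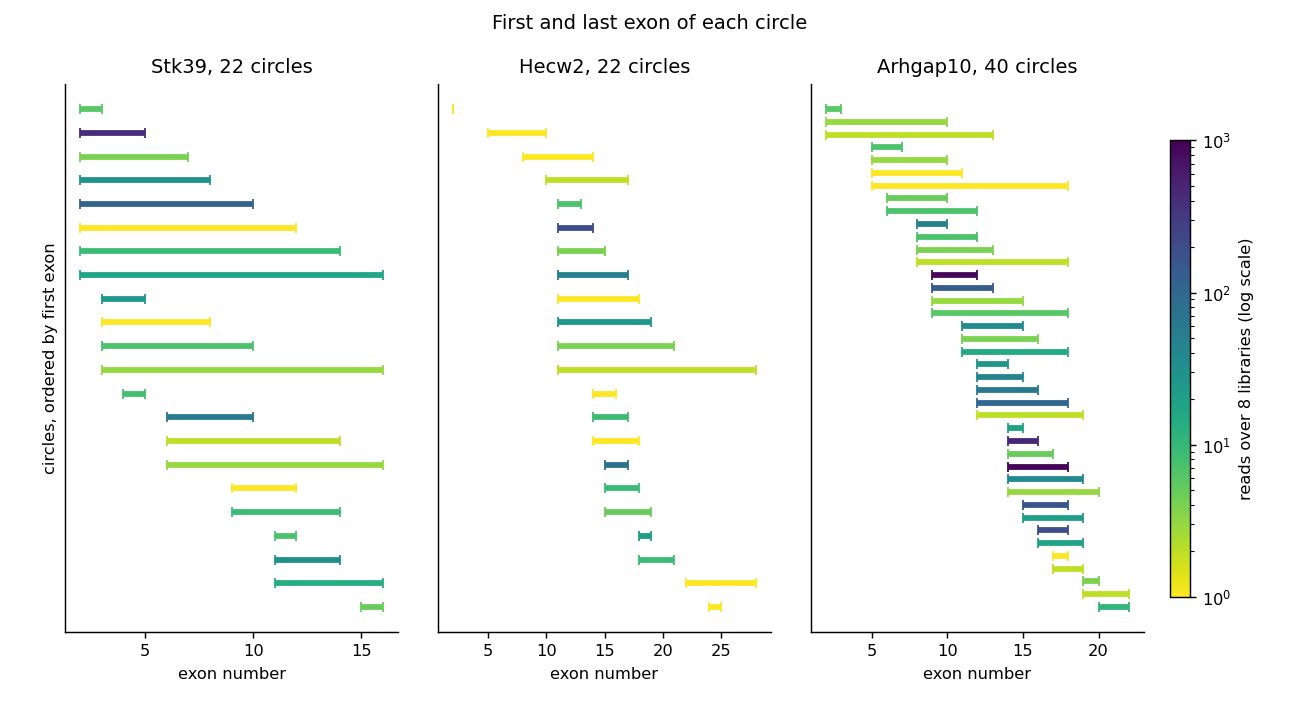
Each horizontal line is 1 circle, drawn from its first to its last exon (exon number on the horizontal axis), for Stk39 (22 circles), Hecw2 (22) and Arhgap10 (40), coloured by its reads over all libraries on a log scale. Lines stacked at the same left end share an acceptor, as the 8 at exon 2 of Stk39 do, and lines with the same right end share a donor, as the 9 at exon 18 of Arhgap10 do.

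Output was spread over several circles in most hosts. The dominant circle, the one with the largest summed normalised count over the 8 libraries, held a median of 32.8% of its host, against 36.9% in the genes with 10 to 19 circles. It held more than 50% in 23 hosts and less than 20% in 25. A median of 2.5 circles (1 to 7) made up 50% of a host's output. Among hosts with at least 100 reads, the most concentrated were Lrch3, which encodes a leucine-rich repeat protein, where the circle of exons 2 to 6 (625 nt) held 85.8% and 906 of 1077 reads, Pde4dip, the myomegalin gene, with 74.4%, and Kcnt2, a sodium-activated potassium channel gene, with 67.9% (789 of 1017 reads). The least concentrated were Lama2 with 11.3%, Ptk2 with 11.6% and Mllt10 with 11.8%. A read counts 4.54 in sham 2 and 5.77 in TAC 2, so a few such reads can set the dominant circle and its share. In Lama2 that circle held 0% to 7.69% of the host's reads in the deep sham libraries and 0% to 7.14% in the deep TAC libraries. The ranges were 6.25% to 12.5% and 3.23% to 14.3% in Ptk2, and 15.4% to 29.8% and 4.88% to 14.3% in Mllt10. In Utrn the circle of exons 60 to 64 held 60%, while in Dmd that of exons 45 to 47 held 13.4%.

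The dominant circle was not simply the one on the busiest site. It used the host's most-used acceptor in 50 hosts and the most-used donor in 38, both in 11 and neither in 39. Counting raw reads in place of normalised counts named the same circle in 84 of the 116 hosts. Together with the circles that share a site with it, the dominant circle held a median of 50.8% of the host.

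The first question between the groups was whether the dominant circle kept its share under pressure overload. Over all hosts, it took 43.1%, 45.1%, 46.0% and 46.8% of the hosts' reads in sham 1 to 4 and 35.7%, 53.5%, 37.9% and 36.3% in TAC 1 to 4. The 95% Wilson interval was 44.1% to 47.9% in sham 3, 34.3% to 37.1% in TAC 1 and 44.9% to 62.0% in TAC 2; all intervals here cover counting error only. Every TAC library but TAC 2 lay below every sham library, and TAC 2 lay above them all. In 55 hosts with at least 10 reads in each of the 6 deep libraries, the median share was 42.5% in sham and 29.5% in TAC. The share was lower in every deep TAC library than in every deep sham library in 20 of the 55 (36.4%), against 25.8% of the 229 genes in the table that could be compared, and higher in 4 (7.3%), against 16.2%. The same circle led in both groups in 34 of the 55 (61.8%), against 75.1% over all those genes. Without sham 4 the count with a lower share was 25, and over all 8 libraries 1 host had enough reads and its groups overlapped. The hosts were chosen by circles counted in these same libraries. The part of this choice and of read number in the 36.4% was not tested.

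Rabep1 and Asph are examples. In Rabep1 the circle of exons 2 to 3 held 79.1%, 78.6% and 85.7% of the host's reads in sham 1, 3 and 4 (95% Wilson intervals within 66.2% to 90%) and 35.4%, 36.4% and 45.7% in TAC 1, 3 and 4 (within 23.8% to 56.5%). In Asph, whose transcripts encode aspartate β-hydroxylase and the calcium-store protein junctin, the circle of exons 2 to 3 held 53.6%, 74.7% and 90.6% (within 46.6% to 91.8%) against 31.9%, 31.4% and 38.7% (within 22.6% to 46.6%). The groups did not overlap in these 6 libraries in either gene. In the shallow libraries the Asph circle held 14.3% in sham 2 (1 of 7 reads) and 100% in TAC 2 (7 of 7 reads), the reverse order.

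In Prex2, which encodes a Rac exchange factor, the dominant circle of exons 36 to 37 held 34.4%, 48.4% and 53.1% in the deep sham libraries, and none of 15, 11 and 11 reads in TAC 1, 3 and 4, with upper Wilson limits of 20.4% and 25.9%. TAC 2 had 3 reads from Prex2, all from this circle. Agtpbp1 went from 39.6% to 68.4% in deep sham libraries to 6.67% to 23.5% in deep TAC libraries. Dysf, a membrane repair gene, went from 66.1% to 76.5% to 34.8% to 41.1%. The 4 hosts in the other direction were Arfgef2, Fhod3, Lrch3 and Sorbs2; Fhod3 is named for this count alone, after its values were seen. In Arfgef2, an ARF exchange factor gene, the circle of exons 4 to 6 held 23.1%, 8.33% and 26.3% in sham 1, 3 and 4 (within 1.49% to 42.1%) and 57.1%, 61.5% and 47.9% in TAC 1, 3 and 4 (within 34.5% to 77.6%).

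**Figure D3:**
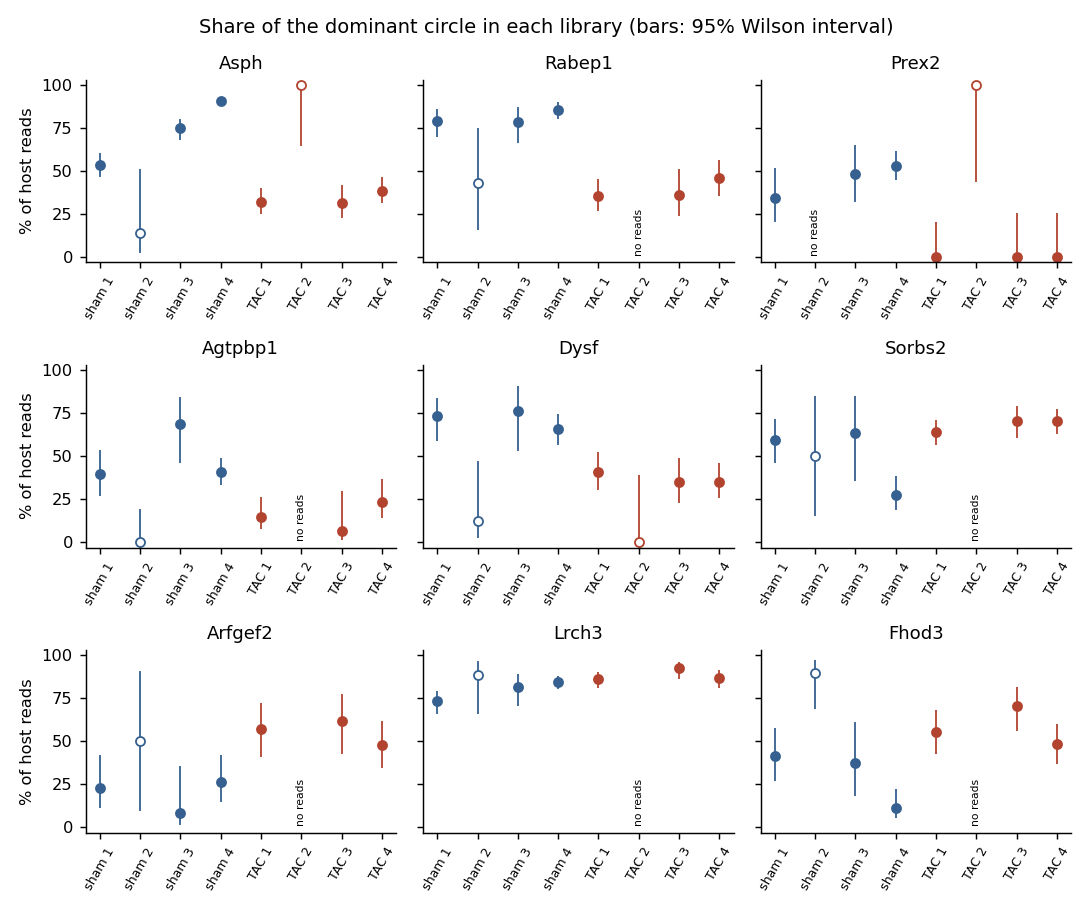
Share of the host's reads held by its dominant circle (percent) in each library for Asph, Rabep1, Prex2, Agtpbp1, Dysf, Sorbs2, Arfgef2, Lrch3 and Fhod3; bars are 95% Wilson intervals and open symbols the 2 shallow libraries, a library with no read of the host having no point. The filled sham and TAC points do not overlap within a gene, with sham higher in the first 5 genes and lower in the last 4, while the open points often lie with the other group.

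The length of the circles differed between the groups in most hosts. In 90 hosts with at least 5 reads in each deep library, the mean circle length per read was higher in TAC than in sham in all 90, with medians of 446 nt in sham and 630 nt in TAC. It was also higher in 441 of the 489 genes with as many reads (90.2%, medians 420 and 540 nt). Among genes with 10 to 19 circles it was higher in 176 of 185 (95.1%, 417 and 583 nt). Over all 8 libraries it was higher in 6 of 8 hosts. Every deep TAC library lay above every deep sham library in 65 of the 90 (72.2%) and below in none, against 49.7% above over the 489 genes with as many reads and 57.3% (106 of 185) in the genes with 10 to 19 circles. In Asph the mean was 337, 280 and 240 nt in sham 1, 3 and 4 and 460, 464 and 444 nt in TAC 1, 3 and 4. In Rabep1 it was 375, 386 and 354 nt against 519, 474 and 466 nt. The groups did not overlap in these libraries, but sham 2, with 567 nt in Asph and 489 nt in Rabep1, lay with the TAC libraries, and TAC 2, with 219 nt in Asph, below all others. Without sham 4 the count was 75 of 92 hosts, and with all 8 libraries 0 of 8. The 116 hosts were chosen by circles counted in these same libraries, 1508 of them seen in TAC only and 571 in sham only. They also had more reads, a median of 199 against 73 in the genes with 10 to 19 circles. The part of this choice and of read number in the 72.2% was not tested.

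**Figure D4:**
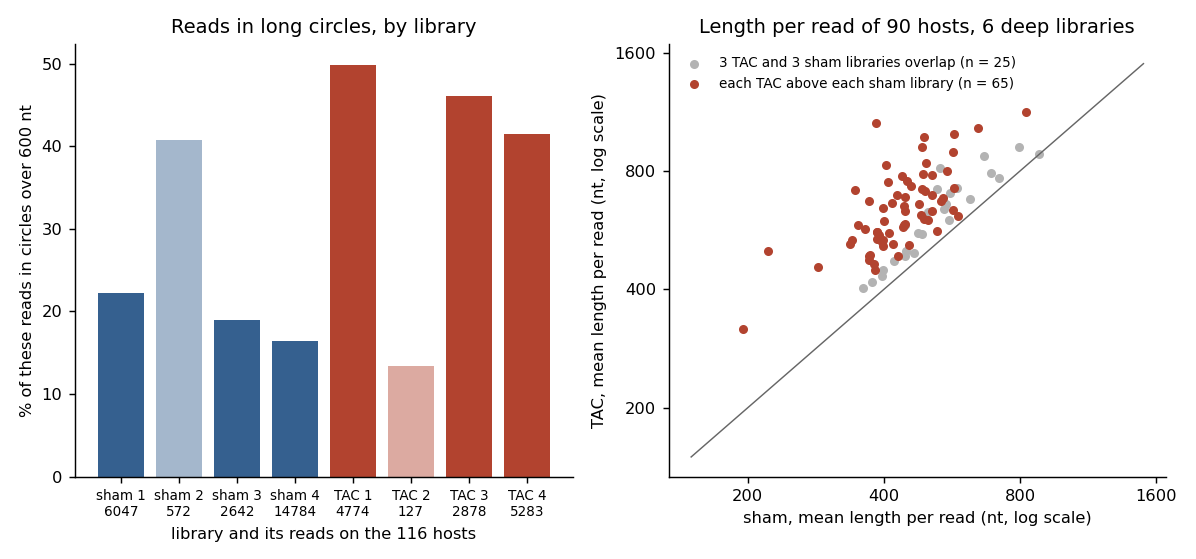
Left, percent of the 116 hosts' reads in circles longer than 600 nt in each library: 16.4% to 22.3% in deep sham and 41.4% to 49.9% in deep TAC libraries, with sham 2 at 40.7% and TAC 2 at 13.4%. Right, mean circle length per read (nt) in the deep TAC libraries against the deep sham libraries for 90 hosts, coloured by whether the libraries of the groups overlap (25) or not (65); every host lies above the diagonal.

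The total output of a host was compared next. In limma's test on log2 of the summed normalised count, the hosts' median difference (TAC minus sham) was -0.39 on the log2 scale, against 0.13 over all genes, with 48 hosts positive and 68 negative. None of the 116 passed an adjusted p of 0.05, against 0.0344% of the 2910 genes tested. The smallest p belonged on the positive side to Stk39, with log2 1.74 ± 0.638 (SE), to the cytolinker gene Dst, to the insulin receptor gene Insr and to Fry, and on the negative side to Arhgap10, with log2 -1.05 ± 0.394, to Tfdp2, which encodes an E2F partner, to Dock4, a Rac exchange factor gene, and to Man2a1, an N-glycan mannosidase gene. All had an adjusted p of 0.999 by limma. edgeR's quasi-likelihood test on the reads gave the hosts a median of 0.18, with 69 of 115 positive. DESeq2 gave 0.47, with 84 positive and 32 negative (0.36 over all genes). The median was thus negative with limma alone. A host without a read enters limma at the added 0.195, and TAC 2 had reads from 44 of the 116 hosts. Without the 2 shallow libraries limma called 41 of 116 host sums, 35 higher and 6 lower, against 13% of genes. The part of TAC 2 in limma's negative median was not tested. Fewer cells of a type and less circular RNA per cell cannot be told apart in bulk tissue.

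edgeR called 4 of the 115 hosts (3.48%), against 8.7% of the 1011 genes it tested: 3 higher in TAC, against 4.06%, and 1 lower, against 4.65%. Sorbs2 circles summed to 19.7, 18.2, 9.11 and 14.2 normalised counts in sham 1 to 4 and to 118, 0, 94.7 and 95.4 in TAC 1 to 4, a log2 difference of 2.08 ± 0.635 (edgeR adjusted p = 0.026). Apart from TAC 2, where no Sorbs2 read was found in 127 reads of the hosts, the TAC libraries stood well above all 4 sham libraries. Svil, the gene of the membrane cytoskeleton protein supervillin, had 0, 13.6, 1.66 and 0.973 in sham and 22.3, 0, 19.6 and 14 in TAC, a log2 difference of 3.23 ± 0.757 (edgeR adjusted p = 0.00182). Here the shallow libraries crossed over, since the 13.6 in sham 2 is 3 reads.

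Dst had 2.28, 0, 1.66 and 0.389 in sham and 14.1, 5.77, 5.15 and 5.72 in TAC, so that every TAC library was above every sham library (log2 2.27 ± 0.761, edgeR adjusted p = 0.0375). Pik3c2a, a class II phosphoinositide 3-kinase gene, was the one host called lower, with 24.3, 13.6, 34.8 and 41.1 in sham and 12.6, 5.77, 7.21 and 10.2 in TAC (log2 -1.99 ± 0.654, edgeR adjusted p = 0.0347). Its groups did not overlap either. DESeq2 called Sorbs2 alone, 1 of 116 hosts, against 0.756% of all genes (0.515% higher and 0.241% lower). Without TAC 1 or without TAC 3, edgeR called 0 hosts (7 of 112 and 5 of 116 at an unadjusted p under 0.05), against 12 of 986 and 12 of 1350 genes, and without the 2 shallow libraries it called 27 of 116, against 22.0% of the genes tested: 17 higher, against 11.3%, and 10 lower, against 10.7%.

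For single circles, 550 of the 3088 had reads in at least 4 libraries and were tested with limma. None passed, against 0.027% of 3705 circles, and 23 had an unadjusted p under 0.05. Differences were positive for 311 and negative for 239, with a median of 0.25 on the log2 scale (0.15 over all circles). edgeR tested the 111 circles with enough reads and called 16 (14.4%), against 12.7% of the 716 circles it tested: 12 higher in TAC, against 7.26%, and 4 lower, against 5.45%. DESeq2 called 4 of the 550, against 0.864%: Sorbs2 exons 7 to 12 and Arfgef2 exons 4 to 6 were higher (background 0.54%), Pik3c2a exons 5 to 8 and Arhgap10 exons 14 to 16 lower (background 0.324%).

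Of the 12 circles called higher, 3 were the dominant circle of their host, in Sorbs2, Arfgef2 and Ash1l. Sorbs2 exons 7 to 12 (714 nt, chromosome 8, 45759053 to 45775703) had 11.8, 9.09, 5.80 and 3.89 normalised counts in sham and 75.8, 0, 66.9 and 67.4 in TAC (log2 2.63 ± 0.819, edgeR adjusted p = 0.0203). Arfgef2 exons 4 to 6 (583 nt) had 2.28, 4.54, 0.828 and 1.95 in sham and 14.9, 0, 16.5 and 14.6 in TAC (log2 2.45 ± 0.774, edgeR adjusted p = 0.0218). In both, 3 TAC libraries were above all sham libraries and TAC 2 had no read. A second Sorbs2 circle, exons 14 to 21 (2400 nt), was also called, with 0.758, 4.54, 0 and 0 against 10.4, 0, 7.21 and 5.09.

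Circles with few sham reads outside sham 2 made up most of the others called higher. Ash1l exons 3 to 4 (838 nt), from the gene of a histone methyltransferase, had 1.52, 18.2, 0 and 0 in sham and 24.5, 0, 24.7 and 21.0 in TAC (log2 3.48 ± 0.894, edgeR adjusted p = 0.00606). Dysf exons 31 to 40 (1062 nt) had 3.03, 18.2, 0 and 0.584 against 14.9, 23.1, 18.5 and 15.9 (log2 2.64 ± 0.815). Insr exons 11 to 20 (1527 nt) had 3.03, 0, 0 and 0 against 8.92, 17.3, 7.21 and 4.45 (log2 2.66 ± 0.929). In Insr all 4 TAC libraries were above all 4 sham libraries, while in Ash1l and Dysf sham 2, at 4 reads each, lay with the TAC libraries. Rabgap1l exons 6 to 11 (748 nt), from a Rab GTPase-activating protein gene, was called at log2 2.36 ± 0.805.

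The 4 circles called lower were each the dominant circle of their host, and none was longer than 377 nt. Pik3c2a exons 5 to 8 (377 nt) had 20.5, 9.09, 24.8 and 28.2 in sham and 5.20, 0, 2.06 and 1.27 in TAC, with no overlap (log2 -3.29 ± 0.870, edgeR adjusted p = 0.00671). Dock4 exons 5 to 7 (331 nt) had 15.2, 4.54, 12.4 and 16.3 against 2.23, 0, 0 and 3.18, again with no overlap (log2 -3.09 ± 0.813, edgeR adjusted p = 0.00671). Tfdp2 exons 2 to 4 (164 nt) had 13.7, 4.54, 5.80 and 10.3 against 2.23, 0, 2.06 and 1.91, also without overlap. Prex2 exons 36 to 37 (258 nt) had 4.17, 0, 12.4 and 13.4 against 0, 17.3, 0 and 0, where the 2 shallow libraries were reversed.

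Circle length moved with these calls. Of 29 tested circles of 600 nt or more, edgeR called 10 higher and 0 lower; of 67 from 300 to 599 nt, 2 higher and 2 lower; of 15 under 300 nt, 0 higher and 2 lower. Over all circles it called 41 higher and 0 lower of 172, 10 and 17 of 435, and 0 and 22 of 105 in the same classes. Median differences were 0.55, -0.18 and -1.47 on the log2 scale, against 1.04, -0.10 and -1.34 over all circles. With each library's trend of reads on circle length taken out as an offset, the medians were -0.22, -0.19 and -0.06. The offset evens out the length classes by design, so these medians are no separate result. In that fit edgeR called 4 circles, against 3.65% of all circles: 0 higher, against 0.843%, and 4 lower, against 2.81%. Dock4 and Pik3c2a were the 2 of the 16 that were called in both fits, and no host sum was called, against 1.88% (1.09% higher and 0.791% lower). A length trend of this kind is shared by hosts outside the 116, and its cause was not tested.

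**Figure D5:**
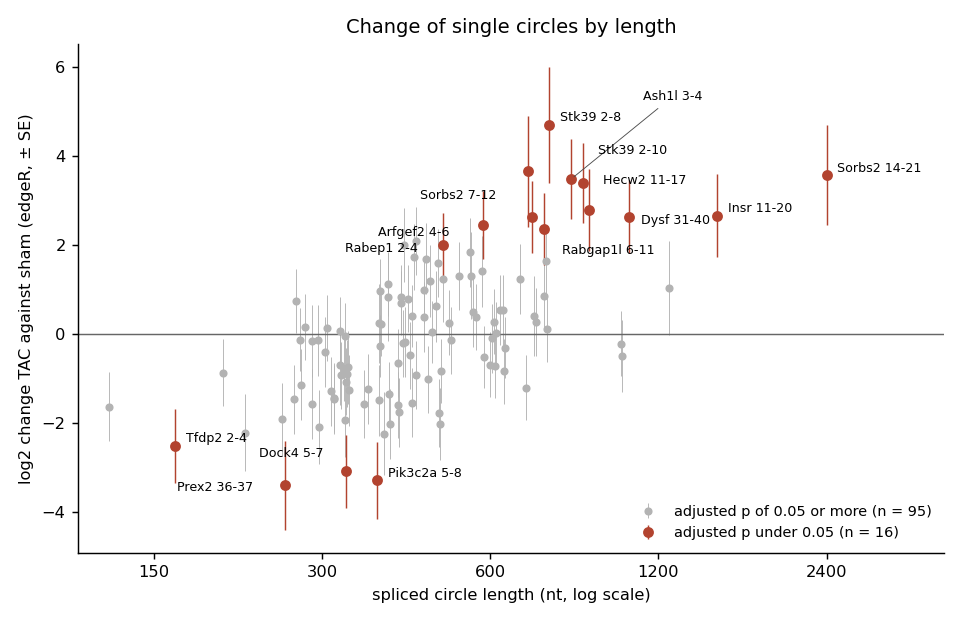
edgeR log2 difference (TAC minus sham) against circle length in nt (log axis) for the 111 tested circles of the 116 hosts. Bars are the SE derived from the F statistic of the test. The 16 called at an adjusted p of 0.05 are coloured, and 15 of them labelled by gene, first and last exon. The 10 called circles of 600 nt or more are all higher in TAC, and the 2 called under 300 nt are lower.

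The 16 calls also depended on single libraries. Without sham 2 edgeR called 37 circles, against 21.8% of all circles in that fit, and without TAC 2 it called 34, against 19%, in each case with 15 of the 16 among them. Without sham 1 it called 12 (10 of the 16), against 11.4%, without sham 3 it called 2, against 3.31%, and without sham 4 it called 6, against 6.92%. Without TAC 1 it called 1, against 1.36%, without TAC 4 also 1, against 0.937%, and without TAC 3 it called 0 of 161, against 0.0% of all circles, with 20 of the 161 at an unadjusted p under 0.05. Without both shallow libraries it called 47 of 175, including 15 of the 16, against 30.1% of the circles tested: 31 higher, against 16.5%, and 16 lower, against 13.7%. limma called 59 of 516 circles in the same 6 libraries, against 11.7%, and 41 of 116 host sums, against 13%. Over the 16 circles, sham 2 was nearer to the mean of the deep TAC libraries in 10, and TAC 2 nearer to that of the deep sham libraries in 11.

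The last question was whether the circles of a host move together. Of 102 hosts with at least 2 circles tested by limma, 11 had only positive and 7 only negative differences, and 84 had both. Of the 26 hosts with at least 2 circles tested by edgeR, 7 had only positive and 6 only negative differences, and 13 had both. With limma, the median range between a host's lowest and highest circle was 2.93 on the log2 scale, and the highest was longer than the lowest in 81. Over 1635 pairs of circles from 1 host, limma's signs were the same in 55.8%, against 56.3% in the hosts outside the 116, with 62.1% for pairs that share an acceptor, 50.3% for pairs that share a donor and 55.3% for pairs that share neither. Over the 84 pairs tested by edgeR the share was 69.0%, against 68.8% outside the 116, and the order turned, with 68.2% for a shared acceptor and 76.5% for a shared donor. In limma's 483 pairs where the longer circle was at least 2 times as long, it had the higher difference in 380 (78.7%). Outside the 116 it had so in 537 of 672 (79.9%). With the length trend taken out, the longer circle had the higher difference in 45.5%, against 46.1% outside the 116. That step removes such a difference by design, so the fall is no separate result. Pairs are not independent, and these shares carry no test.

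A test of unequal change within a host asks whether its circles differ in their TAC against sham difference. With limma it passed in none of 102 hosts (background 0.0% of 800 genes), with an unadjusted p under 0.05 in 5. The smallest belonged to Arhgap10, tested over 17 circles (limma adjusted p = 0.716), the E3 ligase gene Hectd4, Kcnt2, and the chromatin remodeller gene Chd2. With edgeR it passed in 4 of 26 hosts (15.4%), against 10.2% of 118 genes, among them Asph (edgeR adjusted p = 0.00759) and Rabep1 (adjusted p = 0.0182). With the length trend as an offset 7 hosts passed, against 20.5%, with Asph and Rabep1 among them. Without the 2 shallow libraries 15 of 39 passed, against 28.8%, including all 4, and limma passed 11 of 100, against 5.45%. Leaving out TAC 1, TAC 3 or TAC 4 left no host with edgeR, against 1 of 117, 1 of 192 and 3 of 114 genes.

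Rabep1 gives the contrast between the printed junctions that share the exon 2 acceptor. Exons 2 to 3 (333 nt) had 27.3, 13.6, 36.4 and 31.5 normalised counts in sham and 26.0, 0, 16.5 and 23.5 in TAC (log2 -0.89 ± 0.755, edgeR adjusted p = 0.46). Exons 2 to 4 (494 nt), longer by 1 exon, had 3.79, 0, 3.31 and 2.72 in sham and 23.8, 0, 14.4 and 14 in TAC (log2 2.0 ± 0.719, edgeR adjusted p = 0.0437). Apart from TAC 2, which had no read of either, the shorter circle's groups lay side by side, with the TAC values a little lower, and the longer circle was higher in every TAC library.

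In Asph the short circle of exons 2 to 3 (219 nt) had 39.8, 4.54, 123 and 358 normalised counts in sham and 33.5, 40.4, 27.8 and 38.2 in TAC (log2 -2.22 ± 0.866, edgeR adjusted p = 0.0662). The longer one of exons 4 to 12 (528 nt) had 4.93, 18.2, 8.28 and 7.39 against 34.9, 0, 30.9 and 20.4 (log2 1.31 ± 0.767, edgeR adjusted p = 0.25). Neither passed alone. The high value of the short circle came from sham 3 and sham 4, and sham 2 and TAC 2 were reversed for both circles.

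Stk39 showed circles on 1 acceptor with the same sign. The dominant circle of exons 2 to 5 (420 nt) had 16.7, 54.5, 7.45 and 4.09 in sham and 73.6, 23.1, 86.5 and 96.7 in TAC (log2 2.0 ± 0.829, edgeR adjusted p = 0.0831). Exons 2 to 10 (881 nt, chromosome 2, 68358814 to 68410141) had 1.14, 13.6, 2.48 and 0 against 33.5, 0, 22.6 and 23.5 (log2 3.39 ± 0.896, edgeR adjusted p = 0.00671). Exons 2 to 8 (766 nt) had 0, 4.54, 0 and 0 against 10.4, 0, 5.15 and 5.72 (log2 4.70 ± 1.30, edgeR adjusted p = 0.011). In all 3, the deep TAC libraries stood above the deep sham libraries and sham 2 above TAC 2. The test of unequal change within Stk39 did not pass (edgeR adjusted p = 0.439).

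In Arhgap10, the host with the largest mean summed count (177), the circles from the exon 14 acceptor differed in sign. Exons 14 to 16 (222 nt) had 13, 0, 34 and 431 reads in sham 1 to 4 and 0, 0, 0 and 2 in TAC 1 to 4 (DESeq2 log2 -5.73, adjusted p = 0.0159; not tested by edgeR), with most of the sham reads from sham 4. Exons 14 to 18 (488 nt) had 40.2, 22.7, 110 and 119 normalised counts in sham and 26.8, 0, 19.6 and 35.6 in TAC (log2 -2.02 ± 0.818, edgeR adjusted p = 0.0744). Exons 14 to 19 (639 nt) had 4, 0, 0 and 0 reads in sham and 7, 0, 12 and 16 in TAC. The dominant circle, exons 9 to 12 (330 nt), had 48.9, 9.09, 107 and 110 normalised counts against 11.9, 63.5, 16.5 and 11.4. Over all 8 libraries the test within Arhgap10 did not pass with edgeR (adjusted p = 0.767 over 7 circles); without the 2 shallow libraries it did (edgeR adjusted p = 7.8e-09).

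Hecw2 showed the contrast on a shared donor. Exons 11 to 17 (901 nt) had 0, 18.2, 1.66 and 0 in sham and 8.18, 0, 12.4 and 14 in TAC (log2 2.79 ± 0.919, edgeR adjusted p = 0.0274). Exons 15 to 17 (335 nt), which end at the same donor, had 3.79, 4.54, 6.62 and 8.37 against 3.72, 0, 2.06 and 3.82 (log2 -1.27 ± 0.808, edgeR adjusted p = 0.294). The dominant circle, exons 11 to 14 (566 nt), starts at the same acceptor as the first and had 9.48, 9.09, 11.6 and 14.8 against 24.5, 0, 14.4 and 25.4 (log2 0.38 ± 0.736). The test within Hecw2 missed the threshold (edgeR adjusted p = 0.0574).

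By function, 74 of the 116 hosts fell in none of the lists of heart gene groups, which were drawn up with earlier results of these data known. Of 9 hosts at the intercalated disc and costamere, the membrane anchors of the contractile apparatus, edgeR called Sorbs2 and Dst higher and none lower, against 4.06% higher and 4.65% lower over all genes tested; the list's Dmd and Utrn had edgeR host differences of 0.75 and 0.11 that did not pass. Of 9 hosts in hypertrophic signalling, among them Arhgap10, Dock1 and Dock4, Pik3c2a was called lower and none higher; at circle level 3 of their 17 tested circles were called higher (2 of Stk39 and 1 of Insr) and 2 lower (Dock4 and Pik3c2a), against 7.26% and 5.45% over all circles tested. Circles called higher in the other lists numbered 3 of 10 tested at the disc and costamere, 1 of 5 in the sarcomere and Z-disc and 1 of 3 in chromatin regulators, with none of 8 in calcium handling and none of 4 in ubiquitin ligation; none was called lower in these lists. None of 6 hosts in calcium handling and ion channels (Dmd, Itpr2 and Asph lead by circles), of 11 in ubiquitin ligation and autophagy (Vps13b, Vps13d and Nbeal1), of 5 chromatin regulators (Mllt10, Ash1l and Ncor1), of 3 of the sarcomere and Z-disc (Fhod3 and Myom1 among them), nor Lama2 among matrix genes was called as a host sum; their edgeR list medians were -0.27, 0.14, 0.27, 0.15 and -0.20. No gene of fatty acid and mitochondrial metabolism had 20 circles. limma called no host in any list. Of the lists' other genes with circles, edgeR tested 8 at the disc and costamere and called none, and tested 30 in hypertrophic signalling and called 1 higher and 3 lower.

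Markers of heart cell types were checked in the same table. All 7 cardiomyocyte markers had circles, 337 in all, with summed normalised counts of 156 to 777 in sham and 266 to 1613 in TAC libraries. Fibroblast markers had 4 circles from 3 of 6 genes, with sums of 0 to 1.90 and 0 to 1.03, and Col1a1, Col1a2 and Postn had none. All 7 endothelial markers had circles, with sums of 11.8 to 40.9 and 0 to 50.2. Leukocyte markers had circles from 3 of 5 genes, with sums of 7.45 to 17.1 and 0 to 28.6, and Csf1r and Cd163 had none. None of these markers is among the 116 hosts, Ttn and Ryr2 only because they were left out when the hosts were chosen. Ttn holds 139 and Ryr2 147 of the 337 cardiomyocyte marker circles. The part of cell makeup in the differences was not tested.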

How the data were processed

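The authors deposited 1 table of back-spliced junctions for the 8 libraries, with 27391 entries, 26065 of them circRNA and 1326 ciRNA (intronic circles, used only in the closing section). The deposited unit is a signal: each value is a whole number of junction reads divided by 1 factor per library, inferred from the values, of which all are whole multiples within 0.001. Per the submitters' processing notes, the genome was mm10 and HISAT2, StringTie and DESeq2 were used, with no roles or versions; no source used here names the circRNA caller. Exon numbers and lengths come from the matching GENCODE M21 transcript (3081 of the 3088 hosts' circles matched), and junction sequences from the GENCODE M21 sequence of that transcript.

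The main test was limma 3.58.1 with an intensity trend on log2(value + 0.195), for circles or host sums with reads in 4 or more libraries; its fold changes, on that scale, are understated for low circles. limma's diffSplice tested unequal change within hosts. On the recovered reads, edgeR 4.0.16 (quasi-likelihood, TMM, filterByExpr with 5 reads and 15 in total, diffSpliceDGE) and DESeq2 1.42.0 were run as alternatives. The SE given with an edgeR difference was derived from the test, as the absolute log2 difference divided by the square root of its F statistic. Models were fitted on all circles or hosts, with Benjamini-Hochberg adjustment over all and a threshold of 0.05, and tested on simulated data. Other alternatives were a pseudocount of 1, no filter, at least 10 reads in 4 libraries, TMM rescaling, a loess of length (span 0.5) and leaving out libraries. Mice were numbered in accession order. All tests took the 4 mice per group as replicates. limma's estimated prior degrees of freedom were infinite, for circles and for host sums. Its p-values and SEs there rest on the spread fitted over all circles or hosts at a given intensity. They do not measure the spread of a single circle or host between the mice. Named hosts were the 10 with most circles, the 5 with the largest mean sum, those with the smallest p per test, the 3 highest and lowest dominant shares, the sites with most circles (ties included), list leaders, and hosts of called circles; some genes that this rule names are not reported here. The members and lists were chosen with earlier results of these data known. The definition of deep libraries, the counts of hosts whose groups do not overlap, and the edgeR fits with a length offset or fewer libraries were chosen after seeing the data.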

Additional observations from a re-analysis of the deposited data

Results flagged for a closer look

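Values in 15 of 62 groups of 4 libraries stood farther from their nearest neighbour than 0.829 of the group's range, Dixon's 95% limit for 4 values. That limit holds for independent, normally distributed values. Many of these groups are circles chosen because edgeR called them, with zeros and single reads, so the 15 are a list for a closer look and no test. Nearly all of the 15 are values of the 2 shallow libraries. Over all hosts, TAC 2 stood above the other TAC libraries in the dominant circles' share of reads (53.5%) and below them in the number of circles expected in 127 reads (64). Sham 2 stood above the other sham libraries at 18.2 normalised counts for Ash1l exons 3 to 4, Dysf exons 31 to 40 and Hecw2 exons 11 to 17, at 4.54 for Sorbs2 exons 14 to 21 and Stk39 exons 2 to 8, and at 13.6 for the sum of Svil. TAC 2 stood below the other TAC libraries at 0 for Arfgef2 exons 4 to 6, Ash1l exons 3 to 4, Sorbs2 exons 7 to 12 and Tfdp2 exons 2 to 4, and above them at 17.3 for Prex2 exons 36 to 37. The others were sham 1 at 3.03 for Insr exons 11 to 20 and TAC 1 at 14.1 for the sum of Dst.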

How the results depend on the processing

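Circles called among the 116 hosts were 0 with limma (0 to 5 leaving out 1 library, 59 without the 2 shallow libraries), 16 with edgeR (12, 37, 2 and 6 without sham 1 to 4 in turn, 1, 34, 0 and 1 without TAC 1 to 4, 47 without the 2, 4 with the length offset) and 4 with DESeq2. Hosts called were 0 with limma (0 to 3, and 41), 4 with edgeR (4, 15, 2 and 1; 0, 5, 0 and 1; and 27) and 1 with DESeq2. Hosts with unequal change were 0 with limma (0 to 1, and 11) and 4 with edgeR (1, 16, 3 and 3; 0, 9, 0 and 0; 15, and 7 with the offset). limma's difference for the Sorbs2 sum, 0.52, turned to -0.26 with the length trend removed (adjusted p = 0.967) and to -0.30, -0.19 and -0.20 without TAC 1, 3 or 4, and was 2.78 without TAC 2; the cause was not tested. For 26 named circles and hosts, 648 alternatives were set against the main limma fit, in which none passed. No alternative could therefore lose a call. Of the 648, 504 kept the direction and still did not pass, 140 passed and 4 reversed. The 504 do not measure how stable the edgeR calls were. Circles per site fell to 1.57 and 1.54, and the number of hosts to 21, when rare circles were left out; the median dominant share, 32.8%, was 35.7% without circles of 1 read and 31.1% to 35.2% leaving out 1 library. Hosts with longer circles in every TAC library went from 65 to 75 without sham 4 and 0 with all 8 libraries, and those with a lower dominant share from 20 to 25 and 0. No paired analysis was possible because the labels' identifiers carry no number shared between the groups. Depth limits the rest: 41.4% of the circles rest on 1 read, and 2 libraries have under 5000.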

Other observations

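The table also lists ciRNA, circles made of intron sequence, for 25 of the 116 hosts: 70 entries with 302 reads. Their summed normalised counts were 14, 13.6, 8.28 and 26.5 in sham 1 to 4 (15.6 ± 7.70, SD, n = 4) and 28.3, 5.77, 17.5 and 38.2 in TAC 1 to 4 (22.4 ± 13.9), ranges that overlap. Sorbs2 alone holds 15 of these entries and 163 of the reads.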
